A study of Mus musculus with 28 samples.

Results

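The 7 genes described here specify or mark the oligodendrocyte lineage, and they were followed in H3K27me3 ChIP-seq of microglia, the resident macrophages of the brain: the transcription factor genes Olig2, Olig1, Sox10, Sox8, Nkx6-2 and Nkx2-2, and the receptor gene Pdgfra. Regions were taken where the deposited count table names one of these 7 genes as the nearest gene, which gave 8 of 26326 regions. Olig2 has 3 of them, Olig1 2, Nkx6-2 2 and Pdgfra 1, while Sox10, Sox8 and Nkx2-2 are named in no row and are absent by that rule. By position, however, exactly 1 region of the table overlaps each of the 7 genes, so 3 regions named after other genes (Gm10863 over Sox10, Sstr5 over Sox8 and 6430503K07Rik over Nkx2-2) are described beside the 8. The match by position was chosen after the files were seen, so 11 regions are described in all and the counts of the 8 and of the 7 regions over genes are kept apart.

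The groups were 3 subsets of microglia from adult male wild-type C57BL/6 mice on a diet with 0.2% cuprizone for 4 weeks, sorted as CD229+CD11c+, CD229+CD11c- and CD229-CD11c-, and basal microglia (sorted as low for CD44, CD45 and CD11b) from mice of the same strain and sex on a regular diet. Cuprizone is a copper chelator that kills oligodendrocytes and strips myelin; CD229 is a receptor of the SLAM family (gene Ly9), and CD11c an integrin chain (gene Itgax). Each of the 4 groups has 3 libraries with raw counts (basal replicates 3, 4 and 5, and replicates 1, 2 and 3 of each subset), and each sort pooled the brains of 2 to 6 mice, as the labels state. The comparisons ask how this mark of repression differs between microglia of the demyelinated and the healthy brain, and between the subsets.

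H3K27me3 is the trimethyl mark that Polycomb repressive complex PRC2 places on histone H3, and it typically covers developmental regulators in cells of other lineages. In the oligodendrocyte lineage, Olig2 is needed to specify progenitors, PDGF receptor alpha lets those progenitors divide in response to PDGF, and Sox10 and Nkx2-2 act in the passage to myelin-forming cells. Microglia are a separate lineage that arises from yolk sac macrophages. RNA was not analysed here, so only the mark is described. As a check of the basal cells, none of 12 microglia marker genes (Cx3cr1, P2ry12 and Tmem119 among them) had a region named after it and centred within 5 kb of its start. This compares with 5 of 6 astrocyte, 5 of 7 neuron and 3 of 5 endothelial markers. The regions were called in basal cells, so the check does not cover the cuprizone sorts. It also misses broad regions: those over Olig1 and Nkx6-2, centred 7.59 and 7.61 kb from the starts, would not count. Nor would those over Sox10, Sox8 and Nkx2-2, which bear other names.

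Libraries held 7740002 to 11362168 tags in the regions, and the 11 regions described held 36 to 9704 tags per library, so counting error is small over the genes and largest at the short region upstream of Nkx6-2. In each group the titles of 2 libraries carry the tag PE150 and 1 does not; the untagged library, replicate 3 in every group, differed most from the others of its group (chi-square per degree of freedom 3.43 to 7.60 in the cuprizone subsets, against 1.67 to 1.94 between their tagged pairs; 2.57 to 3.56 over the basal pairs). What the tag stands for was not given in the sources used here. Values within the tagged and the untagged libraries therefore stand beside the main results. Nothing in the labels says that replicates came from separate cohorts, so p-values measure the spread between libraries only. ChIP-seq of sorted pools does not tell whether more cells carry the mark or each cell carries more of it. Libraries were scaled over all regions, so fold changes are relative, and the total amount of the mark was not measured.

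The regions over the genes were broad. In the build mm10, the Olig2 region spans chr16:91206502-91247066 (40.6 kb) and holds the whole gene; the Olig1 region spans chr16:91255659-91299066 (43.4 kb) and likewise holds the whole gene. The Nkx6-2 region spans chr7:139578091-139602725 (24.6 kb), and RefSeq also places parts of Inpp5a and Cfap46 in it. The Nkx2-2 region, centred 0.234 kb from the start of the noncoding gene 6430503K07Rik, spans chr2:147173613-147200768 (27.2 kb) and holds the gene entirely. The Sox10 region spans chr15:79154138-79210756 (56.6 kb), and the Sox8 region chr17:25394843-25575229 (180 kb). That last region holds 4 protein-coding genes, Cacna1h, Tekt4, Sstr5 and Sox8, so its values cannot be assigned to Sox8. The Pdgfra region spans chr5:75142163-75173904 (31.7 kb) and covers the start and 48.2% of the gene body. The other 4 regions lie away from the genes: Olig2 has 1 centred 60.6 kb and 1 centred 45.8 kb upstream of its start, Olig1 has 1 centred 43.6 kb downstream, and Nkx6-2 has 1 centred 31.4 kb upstream.

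The promoters of the members differ in CpG content. RefSeq promoters (build GRCm38.p6, 250 bases before to 50 after the start) were available for Nkx6-2, Olig2, Sox8, Nkx2-2 and Pdgfra, and each lies inside the region over its gene. Printed are the 4 whose gene regions gained H3K27me3 in a comparison below, each on the gene's strand, with every CpG dinucleotide (the letters CG, the same on both strands) in capitals. They are chr7:139582748-139583047 (minus strand) for Nkx6-2, chr16:91225300-91225599 (plus strand) for Olig2, chr2:147186353-147186652 (minus strand) for Nkx2-2 and chr5:75152001-75152300 (plus strand) for Pdgfra.
Nkx6-2: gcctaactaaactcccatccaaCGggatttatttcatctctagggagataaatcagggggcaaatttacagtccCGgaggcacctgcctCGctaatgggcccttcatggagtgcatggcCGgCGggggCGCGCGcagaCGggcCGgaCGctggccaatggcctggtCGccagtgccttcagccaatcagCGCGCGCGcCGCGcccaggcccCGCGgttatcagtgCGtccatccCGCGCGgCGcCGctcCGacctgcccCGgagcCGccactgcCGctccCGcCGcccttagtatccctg
Olig2: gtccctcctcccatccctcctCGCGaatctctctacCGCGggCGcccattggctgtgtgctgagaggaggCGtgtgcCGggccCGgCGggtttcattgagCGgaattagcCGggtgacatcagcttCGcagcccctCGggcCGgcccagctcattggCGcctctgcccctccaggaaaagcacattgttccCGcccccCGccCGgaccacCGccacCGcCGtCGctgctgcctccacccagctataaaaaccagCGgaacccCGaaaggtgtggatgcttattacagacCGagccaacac
Nkx2-2: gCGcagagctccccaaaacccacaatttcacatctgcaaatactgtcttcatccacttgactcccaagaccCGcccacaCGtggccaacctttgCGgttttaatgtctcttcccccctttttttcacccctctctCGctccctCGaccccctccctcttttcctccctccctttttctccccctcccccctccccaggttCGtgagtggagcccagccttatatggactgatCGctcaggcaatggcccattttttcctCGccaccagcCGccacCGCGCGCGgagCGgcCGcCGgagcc
Pdgfra: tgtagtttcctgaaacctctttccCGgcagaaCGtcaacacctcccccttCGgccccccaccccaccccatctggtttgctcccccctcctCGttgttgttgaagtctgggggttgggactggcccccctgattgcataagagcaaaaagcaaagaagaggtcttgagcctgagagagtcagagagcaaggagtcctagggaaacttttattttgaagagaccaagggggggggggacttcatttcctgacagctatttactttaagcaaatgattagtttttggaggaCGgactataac
The Nkx6-2 promoter holds 32 CpGs, more than 90.5% of 32851 mouse promoters of the same length. The Olig2 promoter holds 25 (more than 81.6%), the Sox8 promoter 21 (more than 75.2%) and the Nkx2-2 promoter 17 (more than 68.6%). The Pdgfra promoter holds 5, fewer than the median of 7, and more than 38.0% of promoters. A CpG occurs in 94.6% of all promoters, so its presence is not particular to these. The order of the promoters by CpG is not the order of the regions by mark: Pdgfra, the poorest in CpG, had the highest basal enrichment of the 11 regions, as given next.

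In basal microglia the mark was already strong over all 7 genes. In the authors' deposited table, from basal replicates 1 and 2 against input, the log2 ratio of H3K27me3 over input was 2.43 at Pdgfra (rank 993 of 26325 regions), 2.37 at Nkx2-2, 2.30 at Olig2, 2.19 at Nkx6-2, 2.09 at Olig1, 2.05 at Sox8 and 1.90 at Sox10, where the median region had 1.49. The first 5 lie in the top decile of all regions by that ratio, and Sox8 and Sox10 in the decile below. Of the regions away from the genes, the one downstream of Olig1 stood at 2.24 and the one upstream of Nkx6-2 at 1.72. The 2 upstream of Olig2, at 1.48 for the farther and 1.40 for the nearer, lay under the median.

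CPM here is tags scaled by the library's total tags and by its TMM factor, which is computed over all regions. Per length, the level in CPM per kb of region gave these orders of the genes. In CD229+CD11c- microglia it was 8.60 at Olig2, 7.89 at Nkx2-2, 7.18 at Pdgfra, 5.61 at Nkx6-2, 4.79 at both Sox8 and Olig1 and 4.61 at Sox10. In basal microglia it was 5.73 at Olig2, 5.07 at Pdgfra, 4.29 at Nkx2-2, 4.19 at Sox8, 3.78 at Olig1, 3.66 at Nkx6-2 and 3.58 at Sox10. Olig2 was thus the most densely marked gene and Sox10 the least in both groups, while Nkx2-2 and Nkx6-2 stood higher in the order in CD229+CD11c- cells. These are means over 3 libraries, and the differences between genes were not tested.

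**Figure D1:**
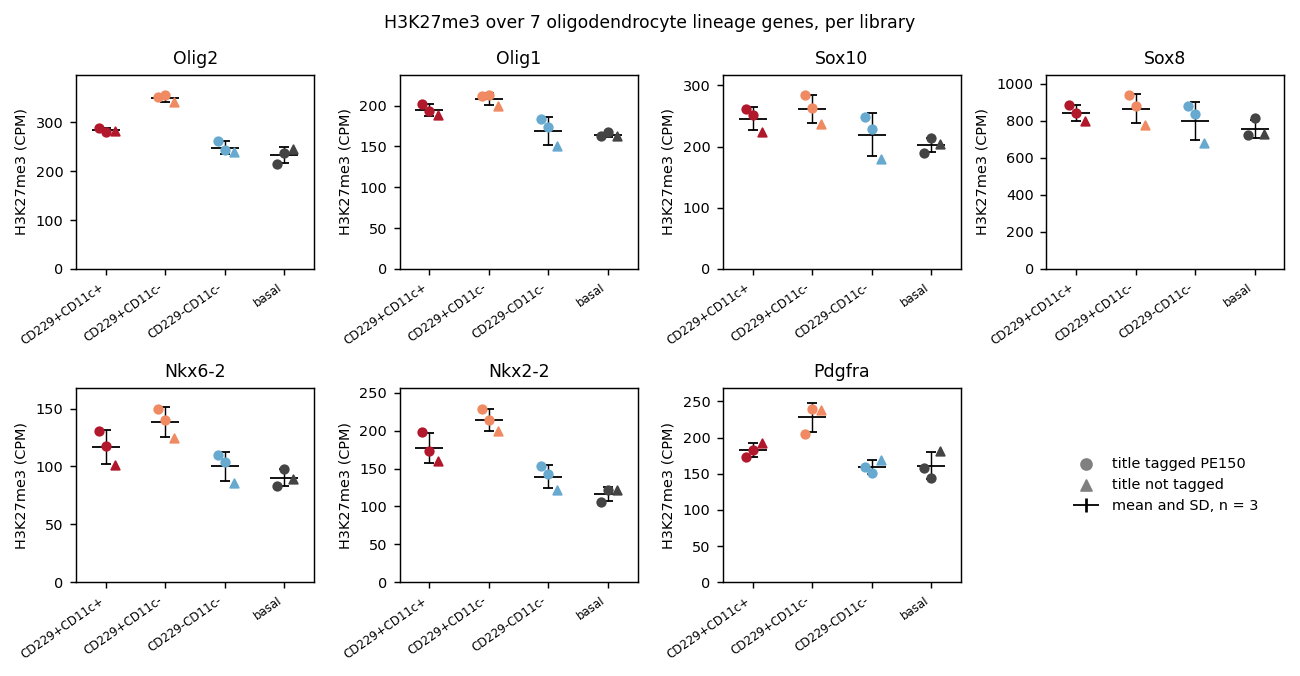
H3K27me3 in CPM (vertical axes, from 0) over each of the 7 genes in each of the 12 libraries, with CD229+CD11c+, CD229+CD11c-, CD229-CD11c- and basal microglia from left to right. Circles are libraries tagged PE150 and triangles untagged ones, and the bars give the mean and SD (n = 3). The CD229+CD11c- libraries lie above all basal libraries in every panel but Sox8.

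With TMM scaling of the libraries, which gives relative levels, CD229+CD11c- microglia had more H3K27me3 than basal microglia over 6 of these 7 genes. Of the 8 regions named after them, 4 rose and none fell (edgeR's quasi-likelihood test, adjusted p under 0.05 over all 26326 regions), where 9.52% of all regions rose. The 4 are the regions over Olig2, Olig1, Nkx6-2 and Pdgfra. By position, Sox10 and Nkx2-2 rose as well, which makes 6 of the 7 regions over genes, with a median log2 fold change of 0.50 against −0.03 for all regions. None of the 4 regions away from the genes passed. With per-library offsets that follow basal enrichment and tag density (a loess trend), 4 of the 6 calls over genes ended: Olig2 then had 0.11 (edgeR adjusted p = 0.317), Olig1 0.07 (0.584), Sox10 0.155 (0.367) and Pdgfra 0.02 (0.94).

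Among the basic helix-loop-helix factors, Olig2, the master regulator of the lineage, had 351, 355 and 341 CPM in the CD229+CD11c- libraries, against 246, 214 and 237 CPM in the basal ones. The groups do not overlap: the lowest CD229+CD11c- library, the untagged one, lies far above the highest basal one. The region rose by 0.59 ± 0.07 on the log2 scale (SE, 1.5-fold; edgeR adjusted p = 3.13e-06), by 0.64 within the tagged libraries and by 0.47 between the untagged ones.

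Olig1, its neighbour and partner in maturation and remyelination, had 212, 212 and 199 CPM in CD229+CD11c- cells, against 163, 162 and 167 CPM in basal cells. All CD229+CD11c- libraries again lie above the basal ones, by a smaller step. The fold change was 0.34 ± 0.07 (1.27-fold, edgeR adjusted p = 0.00239), 0.37 within the tagged libraries and 0.29 between the untagged.

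The homeodomain factors had the 2 largest fold changes of the 7 genes. Nkx2-2, which acts with Olig2 at the onset of differentiation, had 229, 214 and 200 CPM in CD229+CD11c- cells, against 122, 106 and 122 CPM in basal cells. Every CD229+CD11c- library carried well over the highest basal value, and the fold change of 0.88 ± 0.09 (1.84-fold, edgeR adjusted p = 1.55e-06) exceeded that of 99.3% of all regions. Within the tagged libraries it was 0.96, and between the untagged 0.72.

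Nkx6-2, which in mice is needed for normal myelination and paranode structure, had 149.9, 140.3 and 125 CPM in CD229+CD11c- cells, against 89.1, 83.3 and 98.0 CPM in basal cells. The groups do not overlap, although the untagged CD229+CD11c- library is the lowest of its 3. The fold change was 0.62 ± 0.10 (1.53-fold, edgeR adjusted p = 0.000237), 0.68 within the tagged libraries and 0.48 between the untagged.

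Of the SoxE genes among the 7, Sox10 passed and Sox8 did not. Sox10, a regulator of myelin gene transcription, had 284, 263 and 237 CPM in CD229+CD11c- cells, against 204, 190.2 and 213 CPM in basal cells, without overlap. Its fold change was 0.37 ± 0.10 (edgeR adjusted p = 0.0146), 0.44 within the tagged libraries and 0.22 between the untagged. The call was lost without basal replicate 4 or either tagged CD229+CD11c- library, and with scaling to total tags (0.23, 0.0767). Over Sox8, a close relative with overlapping function, the 180 kb region had 936, 880.0 and 778 CPM in CD229+CD11c- cells, against 729, 724 and 812 CPM in basal cells. The groups overlap, and the fold change of 0.20 ± 0.09 did not pass (edgeR adjusted p = 0.154). It passed with the PE150 tag as a covariate (0.19, edgeR adjusted p = 0.00372) and was −0.12 with the loess offsets.

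Pdgfra, which encodes the receptor that drives progenitor division, had 205, 240.0 and 239 CPM in CD229+CD11c- cells, against 181, 158 and 144 CPM in basal cells. The lowest CD229+CD11c- library lies above the highest basal one, and the untagged basal library is the highest of its 3. The fold change was 0.50 ± 0.08 (1.42-fold, edgeR adjusted p = 0.000229), 0.56 within the tagged libraries and 0.40 between the untagged.

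**Figure D2:**
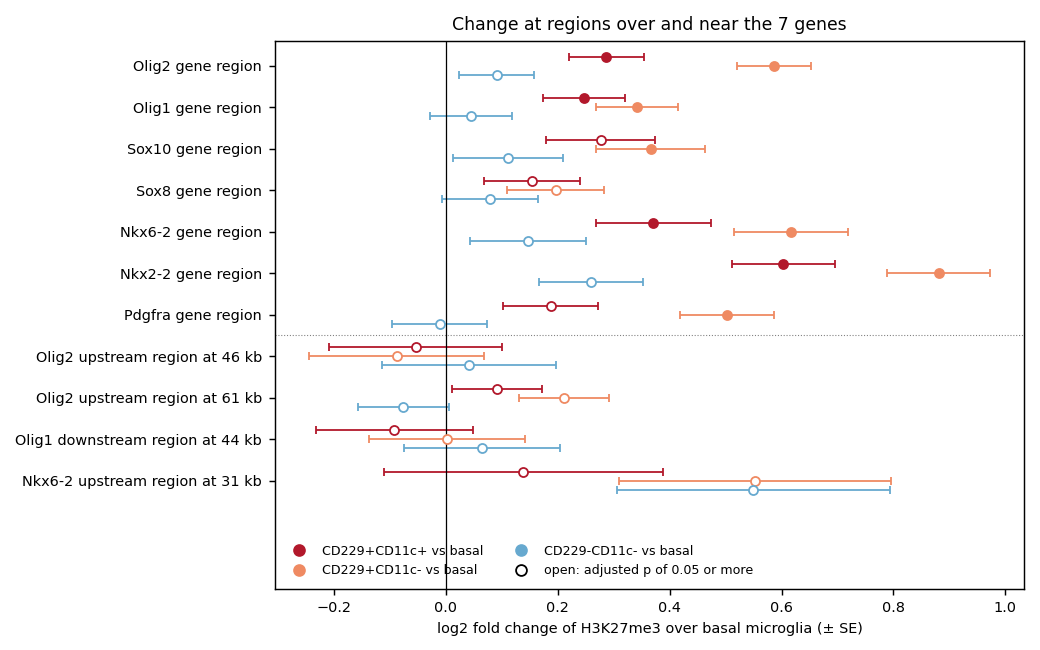
Log2 fold change of H3K27me3 over basal microglia (horizontal axis, ± SE) at the 7 regions over genes and, below the dotted line, the 4 regions away from them, for CD229+CD11c+, CD229+CD11c- and CD229-CD11c- microglia. Filled points passed edgeR's test at an adjusted p under 0.05; over 6 of the 7 genes the CD229+CD11c- point is filled, and none of the CD229-CD11c- points is.

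By mean level, CD229+CD11c+ microglia stood between the CD229+CD11c- and the basal cells over each gene. Against CD229+CD11c- cells only the Olig2 region passed the test without the PE150 tag. Of the 8 regions named after the genes, 3 rose against basal (Olig2, Olig1 and Nkx6-2) and none fell, where 4.33% of all regions rose. By position Nkx2-2 rose too, which makes 4 of 7 regions over genes, with a median of 0.28 against −0.01 for all regions.

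Olig2 had 288, 279 and 283 CPM in CD229+CD11c+ cells, above the 246, 214 and 237 CPM of the basal libraries. The step of 0.29 ± 0.07 passed the test (1.22-fold, edgeR adjusted p = 0.0131). Nkx2-2 had 198, 173 and 159.5 CPM in CD229+CD11c+ cells and no basal value over 122 CPM, with a fold change of 0.60 ± 0.09 (1.52-fold, edgeR adjusted p = 0.00056).

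Nkx6-2 had 131, 118 and 101 CPM in CD229+CD11c+ cells, against 89.1, 83.3 and 98.0 CPM in basal cells. The lowest CD229+CD11c+ library, the untagged one, is just above the highest basal library. The fold change was 0.37 ± 0.10 (1.29-fold, edgeR adjusted p = 0.0369), 0.46 within the tagged libraries and 0.19 between the untagged.

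Olig1 had 202, 193 and 189 CPM in CD229+CD11c+ cells, all above the 163, 162 and 167 CPM of basal cells, and passed by a narrow margin (0.25 ± 0.07, edgeR adjusted p = 0.0493). Sox10, at 0.28 ± 0.10 (edgeR adjusted p = 0.103), Pdgfra, at 0.19 ± 0.08 (0.208), and Sox8, at 0.15 ± 0.09 (0.326), did not pass. Pdgfra had −0.07 with the loess offsets, and its groups overlap, with 173, 183 and 193 CPM in CD229+CD11c+ cells and up to 181 CPM in basal cells.

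With the PE150 tag as a covariate, 4 of the 8 regions and all 7 regions over genes rose, Sox10 (0.27, edgeR adjusted p = 0.000488), Pdgfra (0.19, 0.016) and Sox8 (0.15, 0.032) among them, and the tagged libraries alone gave the same counts. The share of all regions that rose in either of these fits was not counted. Without the covariate, the count of 3 changed with single libraries. It was 1 without basal replicate 3, 0 without basal replicate 4, 0 without CD229+CD11c+ replicate 1 and 1 without CD229+CD11c+ replicate 2. It was also 1 without CD229+CD11c- replicate 2, which enters through the shared estimate of the spread. With scaling to total tags only Olig2 of the 3 passed (0.22, edgeR adjusted p = 0.0367). With the loess offsets the count was 0. The Nkx2-2 region passed in every alternative that gave a test, with fold changes from 0.37 to 0.71 over all 15 alternatives; the comparison of the untagged libraries has no test.

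In CD229-CD11c- microglia, from the same diet, none of the 8 regions passed against basal cells in either direction, where 0% of all regions did; 1103 of the 26326 had an unadjusted p under 0.05, and DESeq2 called 0. Nkx2-2 had 153, 143 and 122.3 CPM in CD229-CD11c- cells, against 122, 106 and 122 CPM in basal cells, a fold change of 0.26 ± 0.09 (edgeR adjusted p = 0.983). Its untagged library is level with the basal ones and the tagged pair lies above them. Over the other genes the fold changes ran from −0.01 at Pdgfra to 0.15 at Nkx6-2, each with overlapping groups, and those of Olig1 and Pdgfra changed sign under some of the alternatives. Between the untagged libraries, 1 in each group and so with no test, the differences were below 0 at 6 of the 7 genes, among them Olig2 (−0.045) and Sox8 (−0.096).

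Within the tagged libraries alone, a comparison added after the data were seen, Nkx6-2 (0.24, edgeR adjusted p = 0.0407), Sox10 (0.24, 0.00808) and Nkx2-2 (0.38, 3.5e-05) did pass for CD229-CD11c- against basal, where 2.99% of all regions rose. Between the untagged libraries the same differences were −0.05, −0.18 and 0.01. In CD229-CD11c- cells the untagged library was the lowest of the 3 at Olig2, Olig1, Sox10, Sox8, Nkx6-2 and Nkx2-2, and the highest at Pdgfra.

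Between the cuprizone subsets, CD229+CD11c- cells carried more of the mark than CD229-CD11c- cells at 5 of the 8 regions, where 6.75% of all regions rose, and less at none. The 5 are the regions over Olig2 (0.50 ± 0.07, edgeR adjusted p = 4.53e-05), Pdgfra (0.51 ± 0.08, 0.000341), Nkx6-2 (0.47 ± 0.10, 0.00469) and Olig1 (0.30 ± 0.07, 0.0114), and the region 60.6 kb upstream of Olig2. By position Nkx2-2 rose as well (0.62 ± 0.09, edgeR adjusted p = 0.00012), while Sox10 (0.25 ± 0.10, 0.125) and Sox8 (0.12 ± 0.09, 0.493) did not pass. With the PE150 tag as a covariate the count of 8 regions was also 5, and Sox10 passed as well (0.26, edgeR adjusted p = 0.000834). The share of all regions that rose with the covariate was not counted.

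Olig2 had 351, 355 and 341 CPM in CD229+CD11c- cells, against 262, 242 and 238 CPM in CD229-CD11c- cells, and Pdgfra had 205, 240.0 and 239 CPM, against 159, 150.5 and 169 CPM. In both the lowest CD229+CD11c- library lies well above the highest CD229-CD11c- library. Olig2 differed by 0.48 within the tagged and by 0.52 between the untagged libraries. Side by side, the fold changes of CD229+CD11c- cells were 0.50 over CD229-CD11c- and 0.59 over basal cells at Olig2, and 0.51 and 0.50 at Pdgfra; both comparisons share the CD229+CD11c- libraries. The count of 5 was 3 without CD229+CD11c- replicate 2, 3 with scaling to total tags and 1 with the loess offsets, and the sign at Sox8 turned with the loess offsets (−0.17). That 1 region is the one 60.6 kb upstream of Olig2 (0.29, edgeR adjusted p = 0.0421). By position Nkx2-2 did not pass with the loess offsets (0.26, edgeR adjusted p = 0.0913).

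In the fit without the PE150 tag, CD229+CD11c+ cells differed from CD229-CD11c- cells at none of the 8 regions by edgeR, where 0.547% of all regions passed in either direction; 2951 regions had an unadjusted p under 0.05, and DESeq2 called 351. The 7 regions over genes were all higher in CD229+CD11c+ cells, by 0.07 at Sox8 (−0.03 with the loess offsets) to 0.34 at Nkx2-2. Nkx2-2 had 198, 173 and 159.5 CPM in CD229+CD11c+ cells, against 153, 143 and 122.3 CPM in CD229-CD11c- cells, without overlap; its edgeR adjusted p was 0.103, and DESeq2 gave 0.0414. With the PE150 tag as a covariate, 4 of the 8 regions were higher in CD229+CD11c+ cells: Olig2 (0.195, edgeR adjusted p = 0.0177), Olig1 (0.205, 0.0159), Nkx6-2 (0.22, 0.0256) and Pdgfra (0.20, 0.0287). By position Nkx2-2 was higher too (0.345, edgeR adjusted p = 0.000129). The 0.547% belongs to the fit without the tag, and the share of all regions that passed with the tag was not counted. In the tagged libraries alone none of the 8 passed, and Nkx2-2 did (0.33, edgeR adjusted p = 0.00023).

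Against CD229+CD11c- cells, CD229+CD11c+ cells had less H3K27me3 over each of the 7 genes, from −0.04 at Sox8 to −0.31 at Pdgfra, and 1 of the 8 regions fell, where 0.771% of all regions fell. The sign turned at Sox8 with scaling to total tags (0.02), and at Sox8, Olig1 and Sox10 with the loess offsets (0.14, 0.02 and 0.03). The region that fell is the Olig2 region, with 288, 279 and 283 CPM in CD229+CD11c+ cells, against 351, 355 and 341 CPM in CD229+CD11c- cells. The groups do not overlap, and the fold change was −0.30 ± 0.07 (edgeR adjusted p = 0.0352), −0.31 within the tagged and −0.27 between the untagged libraries. Pdgfra differed by more but missed the threshold (−0.31 ± 0.08, edgeR adjusted p = 0.0785), although DESeq2 called it (0.0161). With the PE150 tag as a covariate Olig2 (−0.30, edgeR adjusted p = 5.13e-05), Pdgfra (−0.32, 7.02e-05) and Nkx6-2 (−0.25, 0.0078) fell, and by position Nkx2-2 (−0.28, 0.00158). The 0.771% does not belong to that fit, for which the share of all regions was not counted. Without the tag in the fit, the Olig2 call was lost without basal replicate 5 and without any 1 of the 6 libraries compared, the 6 giving adjusted p from 0.0758 to 0.246 at fold changes from −0.32 to −0.29.

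The order of the mean level was the same over 6 of the 7 genes, highest in CD229+CD11c- cells, then CD229+CD11c+, CD229-CD11c- and basal cells; at Pdgfra the mean was 159.7 CPM in CD229-CD11c- cells and 161 CPM in basal cells. Of the neighbours in that order, only CD229+CD11c- and CD229+CD11c+ cells at Olig2 differed by the test without the tag.

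Of the regions away from the genes, only 1 passed in any of the 6 comparisons. The region 60.6 kb upstream of Olig2 (chr16:91153351-91176480) had 76.9, 91.7 and 92.5 CPM in CD229+CD11c- cells, against 68.8, 72.6 and 72.4 CPM in CD229-CD11c- cells and 79.4, 70.6 and 75.3 CPM in basal cells. It passed against CD229-CD11c- cells (0.29 ± 0.08, edgeR adjusted p = 0.0295) and not against basal (0.21 ± 0.08, 0.094), where the groups overlap. With the PE150 tag as a covariate it passed against both (0.29, edgeR adjusted p = 0.00134, and 0.21, 0.0177). The call against CD229-CD11c- cells was lost with scaling to total tags (0.175, edgeR adjusted p = 0.16) and with only these groups in the fit (0.30, 0.0807). It was also lost without CD229-CD11c- replicate 1 or 2 or CD229+CD11c- replicate 2 or 3, with adjusted p from 0.0671 to 0.14. The region 45.8 kb upstream of Olig2 (chr16:91177897-91181593) stood between 8.19 and 11.3 CPM in all 12 libraries, with fold changes of −0.09 in CD229+CD11c- and −0.05 in CD229+CD11c+ cells over basal.

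The region downstream of Olig1 (chr16:91309931-91316764) stood between 19.1 and 28.4 CPM, with 0.00 ± 0.14 in CD229+CD11c- and −0.09 ± 0.14 in CD229+CD11c+ cells over basal. With scaling to total tags the value for CD229+CD11c- cells was −0.14. Its basal enrichment was above that of Olig1 itself, and it was not among the regions that rose. The region upstream of Nkx6-2 (chr7:139612941-139615396) had 6.37, 6.19 and 5.72 CPM in CD229+CD11c- cells, against 3.60, 5.06 and 3.80 CPM in basal cells. These do not overlap, but the fold change of 0.55 ± 0.24 did not pass (edgeR adjusted p = 0.153).

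Along each locus, no region other than those over the genes passed against basal cells in the fit without the PE150 tag. Around Nkx2-2, 5 regions within 50 kb, 4 of them named after the antisense gene Nkx2-2os, had fold changes between −0.38 and 0.11 in CD229+CD11c- cells over basal, where the gene region had 0.88. None of the 5 passed; the one nearest to the threshold was −0.38 ± 0.13 (edgeR adjusted p = 0.0535), in the opposite direction. Around Pdgfra, the 4 neighbouring regions, named after Gm19583 and Mir7025, ran from −0.37 to 0.00, where the gene region had 0.50, and none passed. The region beyond Olig1, named after Ifnar2, had −0.09 ± 0.14. Next to Sox10, the region named after Pick1 had 0.25 ± 0.09 and did not pass (edgeR adjusted p = 0.0605). The difference between a gene region and its neighbours was not tested, and the neighbours are shorter, with larger errors.

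**Figure D3:**
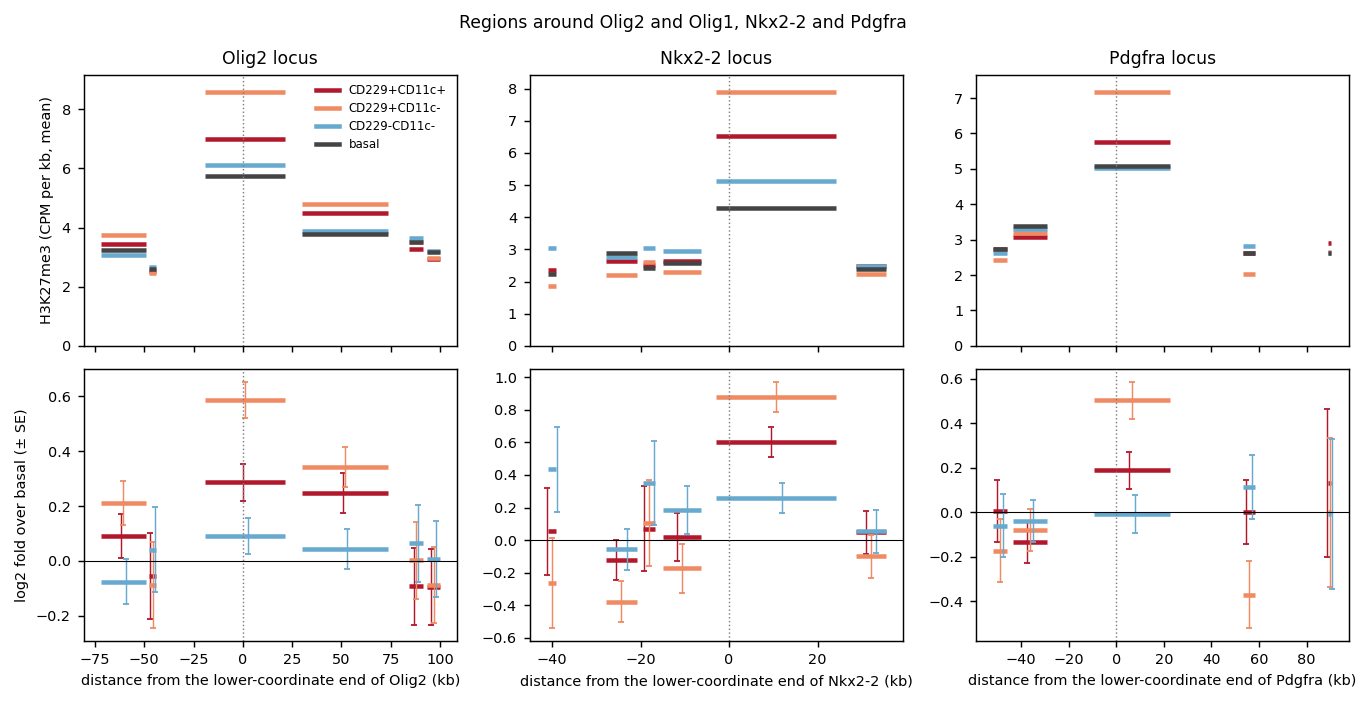
Regions around Olig2 and Olig1, Nkx2-2 and Pdgfra, by distance in kb from the lower-coordinate end of the gene (dotted line); the region to the right of Olig2 covers Olig1. The upper row gives the mean H3K27me3 in CPM per kb (n = 3) in each group and the lower row the log2 fold change of each subset over basal microglia (± SE). The regions over genes are the most densely marked, their neighbours stay below 4 CPM per kb, and in both CD229+ subsets the regions over genes have the highest fold changes of each locus.

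The same measures were taken over all regions of like basal enrichment. In CD229+CD11c- against basal cells, the median log2 fold change grew from −0.09 in the lowest decile of regions by basal enrichment to 0.21 in the highest, and 34.8% of the highest decile rose. Among the 1035 regions of that decile centred within 5 kb of a gene start, 58.6% rose, with a median of 0.43. The fold changes of Olig2, Nkx6-2, Pdgfra and Nkx2-2 lie above that median and that of Olig1 below it. The Nkx6-2 and Olig1 regions, centred 7.61 and 7.59 kb from the starts, are not among the 1035. In CD229+CD11c+ against basal cells 15.9% of the highest decile rose, and 28.6% (median 0.26) of those near a start.

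With the loess offsets, 1 of the 8 regions still rose in CD229+CD11c- against basal cells, where 4.08% of all regions did. It is Nkx6-2 (0.30, edgeR adjusted p = 0.0462); by position Nkx2-2 rose too (0.45, 0.00104). In CD229+CD11c+ against basal cells none of the 8 rose with these offsets, where 2.61% of all regions did, and by position Nkx2-2 did (0.37, 0.0118). What lies behind the trend was not tested.

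**Figure D4:**
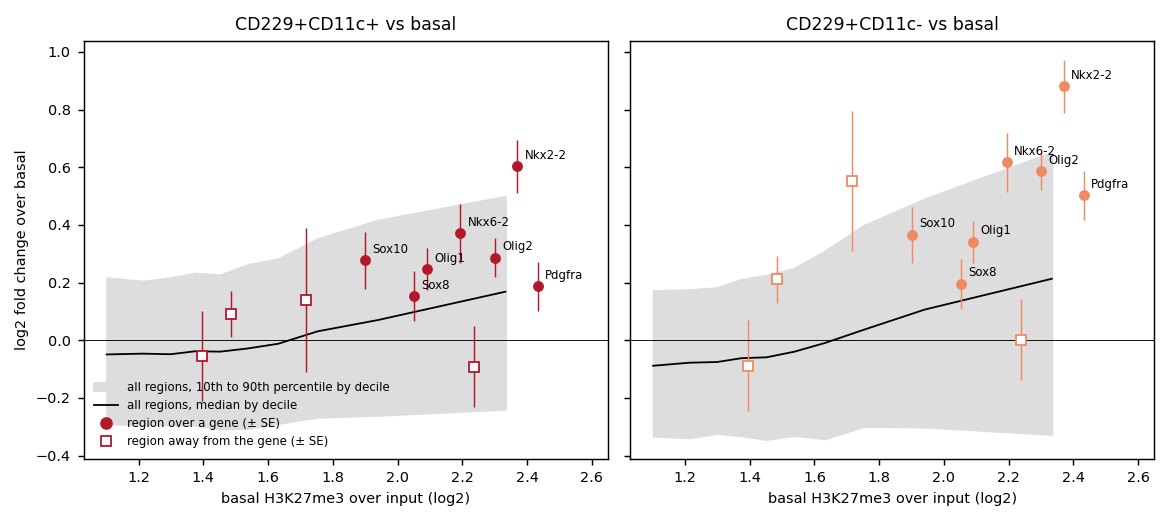
Log2 fold change over basal microglia (vertical axis) against the authors' log2 ratio of H3K27me3 over input in basal cells (horizontal axis), for CD229+CD11c+ (left) and CD229+CD11c- cells (right). The line is the median and the shading the 10th to 90th percentile of all regions by decile of basal enrichment; circles are the regions over the 7 genes and squares the 4 away from them (± SE). Nkx2-2 lies higher than the top of the shading in both panels, and Olig2, Olig1, Sox10 and Sox8 lie within it, above the line.

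In the authors' deposited table, 4 of the 8 regions were called higher in CD229+CD11c- than in basal cells, where 2742 of all 26326 regions were. In CD229+CD11c+ over basal cells 3 were higher, where 1720 of all regions were. In CD229+CD11c- over CD229-CD11c- cells 4 were higher, where 1434 of all regions were. In CD229+CD11c+ against CD229+CD11c- cells 2 were called lower, where 668 of all regions were. The 2 are Olig2 (−0.30) and Pdgfra (−0.31). By position, the authors' test also called Sox10 higher in CD229+CD11c+ than in basal cells (adjusted p = 0.00795). It called Nkx2-2 lower in CD229+CD11c+ than in CD229+CD11c- cells (adjusted p = 0.0392). Neither passed edgeR's test without the tag. The farther region upstream of Olig2, which edgeR called in CD229+CD11c- over CD229-CD11c- cells, was not called by the authors' test (adjusted p = 0.106).

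Over the 12 libraries, 5 other genes had profiles closest to that of the members. Likeness was the root-mean-square difference in centred log2 CPM from the mean profile of Olig2, Olig1, Nkx6-2 and Pdgfra. It was taken among 4857 genes with a region whose centre lies within 5 kb of the start. The closest were Ntng1 (0.038), 5730488B01Rik (0.039), Ccdc184 (0.040), Prdm13 (0.040) and Hotair (0.042), where the median gene had 0.241. Of the members, Olig2 lay at 0.039, Olig1 at 0.078, Nkx6-2 at 0.103 and Pdgfra at 0.118 from the mean they themselves form, and of those outside it Sox10 at 0.113, Sox8 at 0.153 and Nkx2-2 at 0.161. All values share the same libraries and depths.

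Wider lists of the same biology were counted beside all regions, of which 9.52% rose and 3.47% fell in CD229+CD11c- over basal cells, and 4.33% rose and 1.47% fell in CD229+CD11c+ over basal cells. Of their close relatives (Olig3, Sox9, and other Nkx and receptor genes), 7 of 33 regions rose in CD229+CD11c- over basal cells and none fell, with a median of −0.03, equal to that of all regions. Those with the smallest p were Nkx2-5 (0.52), Nkx2-3 (0.51), Olig3 (0.49) and Sox9 (0.64), the last a SoxE gene. The Nkx2-3 region is centred 33.2 kb from the start of the gene. In CD229+CD11c+ cells 3 rose: Sox9 (0.70), Olig3 (0.32) and Nkx2-5 (0.27).

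Of 68 regions of other transcription factors of the lineage, 11 rose and 2 fell in CD229+CD11c- over basal cells; the median was −0.04. The first by p were Hes5 (0.70 ± 0.07), a Notch effector, Gli2 (0.66 ± 0.09), a Hedgehog effector, Sox11 (0.67 ± 0.10) and Olig3, which is on both lists. In CD229+CD11c+ cells 7 rose and none fell, among them Sox9, Gli2 (0.51), Zfp536 (0.82) and Hes5 (0.32).

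Of 22 regions of progenitor markers, 2 rose and 2 fell in CD229+CD11c- over basal cells. Cacng4 (0.53) and Matn4 (0.55) rose, while Xylt1 (−0.68) and Cspg4, which encodes the proteoglycan NG2 (−0.31, at a region 24.8 kb from the start), fell. In CD229+CD11c+ cells Matn4 (0.43) and Cacng4 (0.31) rose and Xylt1 fell (−0.71). Of 47 regions of myelin genes 4 rose and 1 fell in CD229+CD11c- over basal cells. Hapln2 (0.41, at a region centred 12.2 kb from the start), Fa2h (0.26) and Gjb1 (0.56), a connexin gene of oligodendrocytes, were among those that rose. In CD229+CD11c+ cells none rose and 1 fell, at a region 48.0 kb upstream of Opalin (−0.32). The medians of both lists lay between −0.01 and 0.07 in these comparisons. The progenitor markers, with 2 of 22 regions each time, rose at close to the 9.52% of all regions in CD229+CD11c- cells. In CD229+CD11c+ cells that share was above the 4.33% of all regions. The share of myelin gene regions that rose was below that of all regions in both. These differences were not tested.

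Of 100 regions of ligands and receptors that act on the lineage, 14 rose and 7 fell in CD229+CD11c- over basal cells, with a median of 0.09. Those with the smallest p were Fgfr3 (0.82), Wnt7b (0.48), Ptch1 (0.52), the Hedgehog receptor, and Bmp4 (0.58). The Wnt7b region is centred 39.5 kb from the start of the gene. In CD229+CD11c+ cells 7 rose and 5 fell, with a median of 0.07. Cxcr4 (0.77, at a region 210.4 kb from its start) and Bmp4 (0.65) rose there. Pdgfa, which encodes the ligand of the Pdgfra receptor, fell by 1.36 on the log2 scale, to a mean of 5.71 CPM in CD229+CD11c+ cells, against 14.8 CPM in basal cells (SE 0.19, edgeR adjusted p = 0.000215), and Igf1, a growth factor for oligodendrocytes, fell by 1.36 (SE 0.25), to 3.78 CPM, against 9.80 CPM.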

How the data were processed

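H3K27me3 ChIP-seq of sorted microglia was taken from the tables deposited by the authors. The submitters' processing notes list HOMER, DESeq2, STAR 2.7.0f, fastp 0.20.0 and Bowtie2 2.3.4.1, and name mm10 and GRCm38 as builds, without the role of each. Per the file headers, basal regions were called with HOMER on basal replicates 1 and 2 against inputs. The deposited tables hold raw tag counts per region for 12 libraries, a normalized signal that the authors scaled to a common total, log2 fold changes, p-values and adjusted p-values of the authors' tests, and the region size in bp, which served to give levels per kb. No input is subtracted from the counts. Peaks whose genes share a broad region cannot be split.

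The test of the counts used R 4.3.3 and edgeR 4.0.16, with filterByExpr (0 regions removed), TMM scaling over the 26326 regions, all 4 groups in 1 model, robust quasi-likelihood F-tests and Benjamini-Hochberg adjustment over all regions, called at an adjusted p under 0.05. The test was checked on simulated counts. CPM uses the TMM factors, and log2 CPM for likeness a prior count of 2. DESeq2 1.42.0, other scalings, the PE150 tag as a covariate, loess offsets (span 0.5), fits of 2 groups, a replicate block and left-out libraries were alternatives. Basal replicates 1 and 2 have no raw counts and entered no test. Gene positions and promoters came from RefSeq GRCm38.p6. The members, lists and tests were chosen with earlier results of these data known. Named genes are all members, the 5 genes most like them, and up to 4 called regions per list and comparison with the smallest p. Some genes that the lists hold are not reported here by name.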

Additional observations from a re-analysis of the deposited data

Results flagged for a closer look

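Differences between the cuprizone subsets passed edgeR's test at 6 regions, which marks a change over basal cells that is unequal in 2 subsets of the same diet. Between CD229+CD11c- and CD229-CD11c- cells the log2 differences were 0.50 over Olig2, 0.30 over Olig1, 0.47 over Nkx6-2, 0.62 over Nkx2-2, 0.51 over Pdgfra and 0.29 at the region 60.6 kb upstream of Olig2. Between CD229+CD11c+ and CD229+CD11c- cells the difference was −0.30 over Olig2. Each is the test of the difference itself, and each pair of groups had no overlapping libraries. The untagged library stood apart from the tagged pair in every subset. The difference over Olig2 between CD229+CD11c- and CD229-CD11c- cells was 0.48 within the tagged libraries and 0.52 between the untagged ones. With the tag as a covariate each of these differences still passed. With the loess offsets none of the differences over genes passed. Between CD229+CD11c- and CD229-CD11c- cells they were then 0.07 over Olig2, 0.08 over Olig1, 0.21 over Nkx6-2, 0.26 over Nkx2-2 and 0.09 over Pdgfra. Over Olig2 between CD229+CD11c+ and CD229+CD11c- cells it was −0.03. The call over Olig1 was lost in 4 alternatives in all. The call at the region 60.6 kb upstream of Olig2 held with the loess offsets (0.29, edgeR adjusted p = 0.0421). It was lost in 6 alternatives (edgeR adjusted p from 0.0671 to 0.16). The call between CD229+CD11c+ and CD229+CD11c- cells over Olig2 was also lost without any 1 of the libraries compared.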

How the results depend on the processing

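Counts of the 8 regions called depended on the trend correction and, in the weaker comparisons, on single libraries; the causes were not tested. With loess offsets 1 region was called in CD229+CD11c- over basal cells (in place of 4), 0 in CD229+CD11c+ over basal (3), 1 in CD229+CD11c- over CD229-CD11c- (5) and 0 in CD229+CD11c+ against CD229+CD11c- (1). With scaling to total tags, which moved the median of all regions in CD229+CD11c- over basal cells to −0.16, against −0.03 with TMM, the last 3 counts were 1, 3 and 0. Leaving out each library gave 0 to 3 in CD229+CD11c+ over basal, 3 to 5 in CD229+CD11c- over CD229-CD11c- and 0 to 2 in CD229+CD11c+ against CD229+CD11c- (0 without any library of its own groups). With the PE150 tag as a covariate 4 were called in CD229+CD11c+ over CD229-CD11c- (0) and 3 lower in CD229+CD11c+ against CD229+CD11c-. The share of all regions called with the covariate was not counted. CD229+CD11c+ against CD229+CD11c- gave 2 with only its groups in the fit, 2 by DESeq2 and 3 in tagged libraries only. Over all 26326 regions DESeq2 called 668 in that comparison, where edgeR called 203 lower and 14 higher. In tagged libraries CD229-CD11c- over basal gave 1 (0), where 2.99% of all regions rose. For the fit of 2 groups, the left-out libraries, total tags and the other tagged comparisons the share of all regions was not counted.

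Replicates share numbers across the cuprizone subsets, but the labels do not say what a number marks. Same-numbered libraries correlated at 0.083 to 0.457, over 0.1 in 8 of 9 pairs, and 13 of 18 matches were best with their own number. Number 3, at 0.331 to 0.457, is the untagged library in every subset, so number and tag cannot be told apart there. Number 2 stood at 0.083 to 0.134, and most of its best matches were with number 1. The numbers were therefore not taken to pair the libraries. With a replicate block, 4 of the 8 regions and 6 of the 7 over genes were called in CD229+CD11c+ over CD229-CD11c-, 5 and 7 in CD229+CD11c- over CD229-CD11c-, and 3 and 4 lower in CD229+CD11c+ against CD229+CD11c-. The block also sets the untagged libraries apart from the tagged ones. The share of all regions called with the block was not counted. Basal cells share only number 3, so no block was fitted there.

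Signs turned only for folds that had not passed. With loess offsets Olig1 became −0.009 in CD229-CD11c- over basal, Sox8 −0.123 and the region downstream of Olig1 −0.278 in CD229+CD11c- over basal, Pdgfra −0.067 in CD229+CD11c+ over basal, Sox8 −0.166 in CD229+CD11c- and −0.030 in CD229+CD11c+ over CD229-CD11c-, and Olig1 0.016, Sox10 0.029 and Sox8 0.136 in CD229+CD11c+ against CD229+CD11c-. With total tags the region downstream of Olig1 became −0.136 in CD229+CD11c- over basal and Sox8 0.023 in CD229+CD11c+ against CD229+CD11c-; in tagged libraries Pdgfra became 0.039 in CD229-CD11c- over basal. Over the left-out libraries the range was −0.018 to 0.125 at Olig1 and −0.085 to 0.082 at Pdgfra in CD229-CD11c- over basal. Downstream of Olig1 the values over basal ran between −0.219 and 0.009 for CD229+CD11c+ and between −0.076 and 0.112 for CD229+CD11c-, and at Sox8 −0.027 to 0.148 in CD229+CD11c+ over CD229-CD11c- and −0.113 to 0.019 in CD229+CD11c+ against CD229+CD11c-. In all, of the alternative values for single regions 674 kept sign and side of the threshold or, between the untagged libraries, which have no test, stayed within the SE. Of the rest, 47 lost the call, 43 gained it and 22 turned in sign in fits with a test. The other 23 are differences between the untagged libraries that moved by more than the SE.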
